A study of Mus musculus with 6 samples.

Results

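Cadherins, catenins, nectins, claudins and other genes of cell-cell junctions were followed through 6 lines of cultured mouse spermatogonial stem cells. The set was given as a list of gene names and held 29 of the 41053 genes in the count tables: 12 of the adherens junction, 10 of the tight junction, 5 of the desmosome and 2 of the gap junction. Of these, 28 passed a filter on low counts and were tested with 15263 genes in all, and Dsc2 did not pass. Spermatogonial stem cells are the germline stem cells of the testis. Here they came from adult mice and were grown in a medium based on StemPro-34. Cells had received a plasmid with a GFP reporter, alone for the 3 WT lines or with an sgRNA against Ephb2 for the 3 lines labelled Ephb2-KO, so all lines carry the history of electroporation, sorting for GFP and subcloning. Each line gave 1 library of polyadenylated RNA. In both groups replicates 1 and 2 were at passage 20 and replicate 3 was at passage 18.

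Cells in contact are held together by several structures that differ in their membrane proteins and in the filaments they hold. At adherens junctions, cadherins and nectins bind across the gap between cells, and catenins and afadin tie them to actin. Tight junctions seal the gap with claudins and occludin on scaffolds of the zonula occludens proteins, desmosomes join intermediate filaments through desmogleins, desmocollins, plakoglobin, plakophilins and desmoplakin, and gap junctions are channels made of connexins. In the testis, spermatogonia touch Sertoli cells and one another through such contacts, and E-cadherin is in wide use as a surface marker of undifferentiated spermatogonia.

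Total counts ran from 21772404 to 34047758 per library, and 3 counts were worth 0.0803 to 0.147 CPM (counts scaled to a common library size of 1000000). Floors and intervals on counts cover counting error only. The labels give the lines as separate subclones and do not say what a replicate number shares. In fits without the replicate number, p-values measure the spread between these lines. In fits that include the number, they measure only the spread between same-numbered libraries once the group difference is taken out. Ephb2 itself was at 21.3, 27.1 and 10.8 CPM in WT replicates 1, 2 and 3 and at 37.1, 16.5 and 13.4 CPM in the Ephb2-KO-labelled libraries. Its transcript did not pass the test (log2 fold change 0.18, SE 0.50, edgeR adjusted p = 1.0), so the genotype is named here by its label. Counts over whole exons cannot reveal small edits of a few bases where the guide binds.

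Germline markers such as Dazl, Ddx4 and Gfra1 were counted in every library, and Dazl ran from 696 to 1382 CPM. Libraries of both groups with the number 3, those of passage 18, stood apart. Summed over 16 genes of fibroblasts, the kind of cell used as feeders and found in testis connective tissue, expression was 17349 CPM in WT replicate 3 and 20440 CPM in Ephb2-KO replicate 3, against 3140 to 5667 CPM in the 4 libraries of passage 20. Summed over 12 germline markers it was 2059 and 1853 CPM against 3105 to 3709 CPM. In bulk RNA, fewer cells of a type and less RNA per cell cannot be told apart. Sertoli genes summed to 61.4 to 98.9 CPM. Of these, Sox9 ran from 16.5 to 41.8 CPM, Wt1 from 16.1 to 37.3 CPM and Gata4 from 9.08 to 19.3 CPM. Fshr had 0 counts in all 6 libraries and Amh had 0 in 3. The 8 genes of simple epithelia, keratins among them, summed to 13.3 to 24.8 CPM. Leydig genes summed to 1.11 to 2.12 CPM with Lhcgr and Hsd3b1 at 0 throughout, 5 endothelial genes to 8.79 to 33.6 CPM and 4 blood genes to 6.26 to 20.4 CPM. Genes of pluripotent cells summed to 103 to 180 CPM, most of it Klf4.

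The members differed over a wide range of levels. Per kilobase of exon, the only scale on which levels of different genes are compared here, Ctnnb1, the beta-catenin that links cadherins to actin and carries Wnt signals, was highest with 214 ± 29.1 CPM per kb (SD, n = 6). F11r, the junctional adhesion molecule A, followed with a mean of 70.3 and a range of 56.3 to 85.2, and Ctnna1, alpha-catenin, with 49.6 ± 10.2. Below them Cldn12 (29.4 ± 6.01), Tjp1 (24.6 ± 8.71) and Jam3 (24.2 ± 1.63) had means that differed by less than the SD of the first, and Cadm1 (19.7 ± 5.57) and Ocln (18.8 ± 6.01) differed by less than either SD. The lowest members were Cldn4 with 0.747 ± 0.630, Dsp with 0.309 ± 0.199, Dsg2 with 0.188 ± 0.113 and Dsc2 with 0.0790 ± 0.0946 CPM per kb. Among the desmosomal genes, Pkp2 (7.48 ± 3.43 CPM per kb) and Jup (5.21 ± 2.05) were thus much higher than Dsp and the cadherins Dsg2 and Dsc2.

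**Figure D1:**
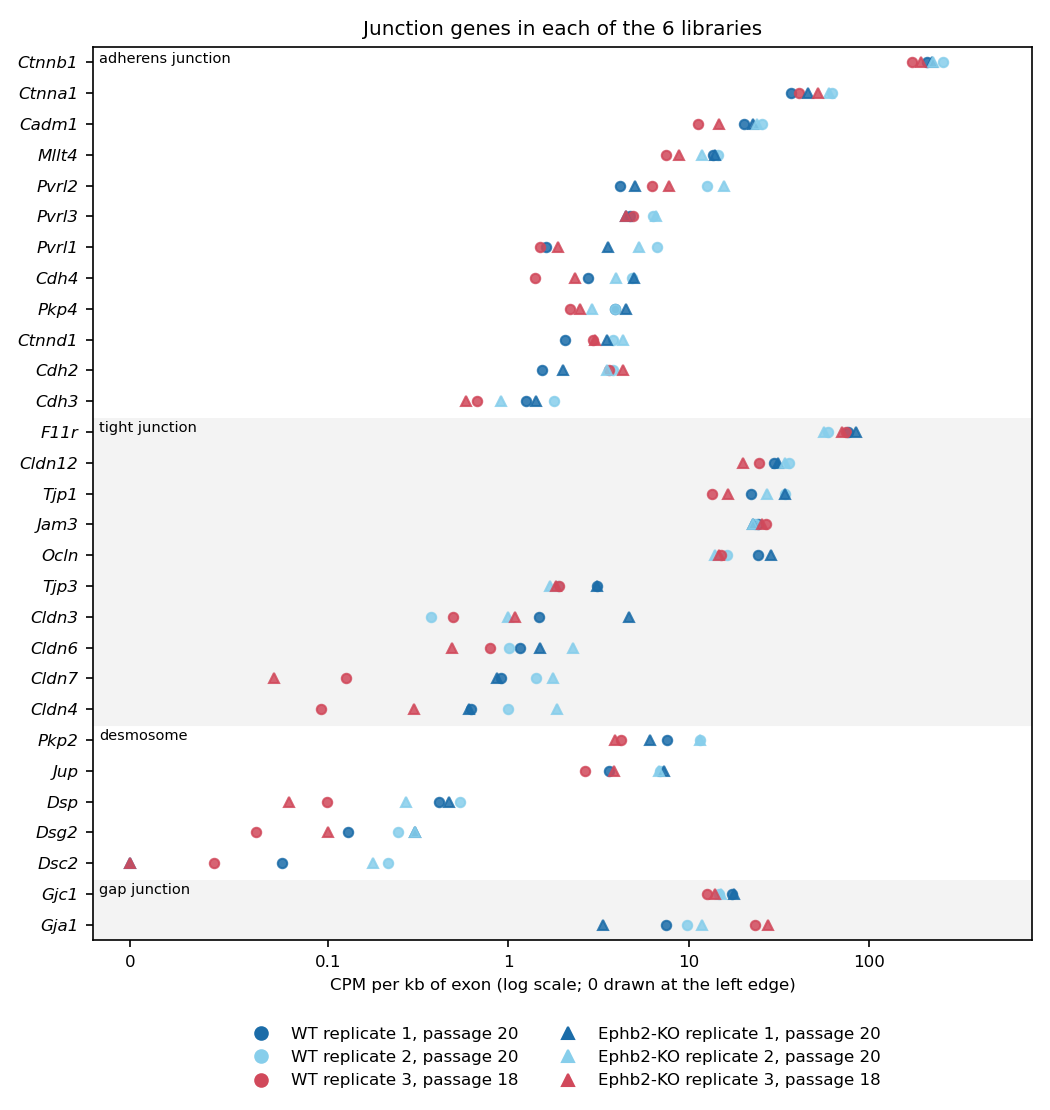
Level of each of the 29 members in the 6 libraries, in CPM per kb of exon on a log axis, grouped by junction and ordered by mean level. Circles are WT and triangles are labelled Ephb2-KO, with 1 colour per replicate number. Ctnnb1, in the top row, has the highest mean with 214 CPM per kb. Dsc2, in the lowest row of the desmosome block, has the lowest with 0.0790. The red symbols of passage 18 lie left of the others for Cldn7, Cldn4, Dsp and Pkp2 and right of them for Gja1.

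Among the cadherins of the list, N-cadherin (Cdh2, the cadherin of nerve and mesenchymal cells) was at 12.4, 30.6 and 29.4 CPM in WT replicates 1, 2 and 3 and at 16.2, 28.6 and 35.1 CPM in the Ephb2-KO-labelled libraries. Both libraries numbered 1 were lowest. R-cadherin (Cdh4) was at 20.1, 35.1 and 10.2 CPM and at 36.1, 28.8 and 17.0 CPM, lowest in both libraries numbered 3. P-cadherin (Cdh3) had 4.95, 7.09 and 2.68 CPM in WT and 5.69, 3.60 and 2.31 CPM in the others, again lowest at number 3. E-cadherin (Cdh1), which is not a member and was taken from a list of 110 further junction genes, had 28.0, 21.3 and 4.87 CPM and 8.46, 24.1 and 3.73 CPM. The ratio of Cdh1 to Cdh2 per kb of exon therefore ran from 0.188 and 0.292 in the libraries of passage 18 to between 0.918 and 3.98 in those of passage 20.

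Many members differed between the passages, in a comparison that sets 2 libraries against 4. With the genotype as a covariate, 11 of 28 tested members were lower at passage 18 (39.3%, where 10.4% of all tested genes were called lower), and 1 was higher (3.57%, against 15.4% of all genes called higher). These calls are from edgeR's quasi-likelihood test with Benjamini-Hochberg adjusted p under 0.05. The median log2 fold change of the members was -0.71, and that of all genes was -0.06. Ranges did not overlap for 15 members lower at passage 18 (53.6%, against 26.6% of all genes) and for 2 that were higher, Gja1 and Jam3 (7.14%, against 26.9%). Passage and replicate number cannot be told apart here, since both libraries of passage 18 carry the number 3. Same-numbered libraries deviated together from their group means (correlations 0.596, 0.736 and 0.850 over genes). The 2 libraries of passage 18 can therefore not be taken as independent, and the passage p-values here and below are likely too small. Without WT replicate 3 or without Ephb2-KO replicate 3, 0 members passed in either direction, with 1 library left at passage 18 that is assumed to vary like the rest. Without WT replicate 2 the members called lower numbered 6, and without either passage 20 library labelled Ephb2-KO they numbered 7. The count of all genes called also moved when single libraries were left out, so these counts alone do not set the members apart.

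Markers of cell types also differed between the passages. All 12 germline markers had log2 fold changes below 0 (median -0.78, with 8 called lower), and 14 of 16 fibroblast genes had values above 0 (median 2.05, with 11 called higher). Their part in the passage differences of the junction genes was not tested. When libraries were scaled to the 12 germline markers in place of all genes, an alternative chosen after the data were seen, the median of all genes moved from -0.06 to 0.72. Of the members, 2 were lower, Cldn7 and Dsp (7.14%, against 0.406% of all genes), and 7 were higher (25.0%, against 46.9%): Cdh2, Ctnna1, Ctnnb1, Pvrl3, F11r, Jam3 and Gja1. Of the 28 values 17 kept their sign, and 11 moved from below to above 0: those of Ctnna1, Ctnnb1, Ctnnd1, Pkp4, Pvrl2, Pvrl3, Mllt4, Cldn12, Ocln, Tjp3 and Gjc1. Directions below are given on the scaling to all genes.

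The largest passage difference among the members was in claudin 7, a sealing protein of tight junctions in many epithelia. Cldn7 had 66, 71 and 6 counts in WT replicates 1, 2 and 3 and 60, 77 and 2 counts in the Ephb2-KO-labelled libraries, which is 1.77, 2.78 and 0.248 CPM and 1.69, 3.47 and 0.0982 CPM. Both libraries of passage 18 were far below all 4 of passage 20. Cldn7 was 13.5-fold lower at passage 18 (log2 fold change -3.75, SE 0.69, edgeR adjusted p = 0.00874), and 7.84-fold lower on the germline scaling (-2.97, SE 0.69, adjusted p = 0.00679). It lies on the plus strand of chromosome 11 from 69964779 to 69967885 (GRCm38, as are all positions here).

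Claudin 4, another claudin of epithelia, showed a similar order at low counts. Cldn4 (minus strand of chromosome 5, 134945126 to 134946934) had 42, 46 and 4 counts in WT and 39, 75 and 11 counts in the Ephb2-KO-labelled libraries. That gave 1.12, 1.80 and 0.165 CPM against 1.10, 3.38 and 0.540 CPM, with no overlap between passages. It was 5.58-fold lower at passage 18 (log2 fold change -2.48, SE 0.70, adjusted p = 0.0389), and on the germline scaling the value was -1.68 with an adjusted p of 0.0760. Its neighbour on chromosome 5, Cldn3, did not pass (log2 fold change -1.17, SE 0.80, adjusted p = 0.318).

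All 4 tested desmosomal members were lower at passage 18, with a median log2 fold change of -1.52, where 10.4% of all genes were called lower and the median was -0.06. Of 12 further desmosomal genes that are not members, 3 were tested and 0 were called. Their log2 values ran from -0.70 to -0.02, and from 0.08 to 0.77 on the germline scaling. Desmoplakin (Dsp, plus strand of chromosome 13, 38151328 to 38198577), which ties the desmosome to keratin filaments, had 3.99, 5.21 and 0.949 CPM in WT and 4.51, 2.61 and 0.589 CPM in the Ephb2-KO-labelled libraries. It was 5.35-fold lower at passage 18 (-2.42, SE 0.46, adjusted p = 0.00973), and also lower on the germline scaling (-1.63, SE 0.48, adjusted p = 0.0213). The desmosomal cadherin Dsg2 was at 1.07, 2.04 and 0.330 CPM and at 2.51, 2.52 and 0.835 CPM. It was lower at passage 18 (log2 -1.87, SE 0.51, adjusted p = 0.0355). Plakophilin 2 (Pkp2), an armadillo protein of the plaque, was at 40.5, 62.0 and 22.6 CPM and at 32.8, 61.9 and 20.9 CPM. It was 2.27-fold lower at passage 18 (log2 -1.18, SE 0.31, adjusted p = 0.0292). Plakoglobin (Jup), which desmosomes share with adherens junctions, was at 23.4, 44.8 and 17.0 CPM and at 47.1, 44.2 and 24.8 CPM, so that WT replicate 1 of passage 20 lay below Ephb2-KO replicate 3 of passage 18. It was 1.92-fold lower at passage 18 (log2 -0.94, SE 0.28, adjusted p = 0.0437). On the germline scaling Dsg2, Pkp2 and Jup kept values below 0 (-1.06, -0.38 and -0.13) and did not pass. The fifth, the desmocollin Dsc2, had 11, 29 and 3 counts in WT and 0, 21 and 0 in the Ephb2-KO-labelled libraries. Those counts of 0 allow up to 0.0846 CPM in replicate 1 and 0.147 CPM in replicate 3.

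**Figure D2:**
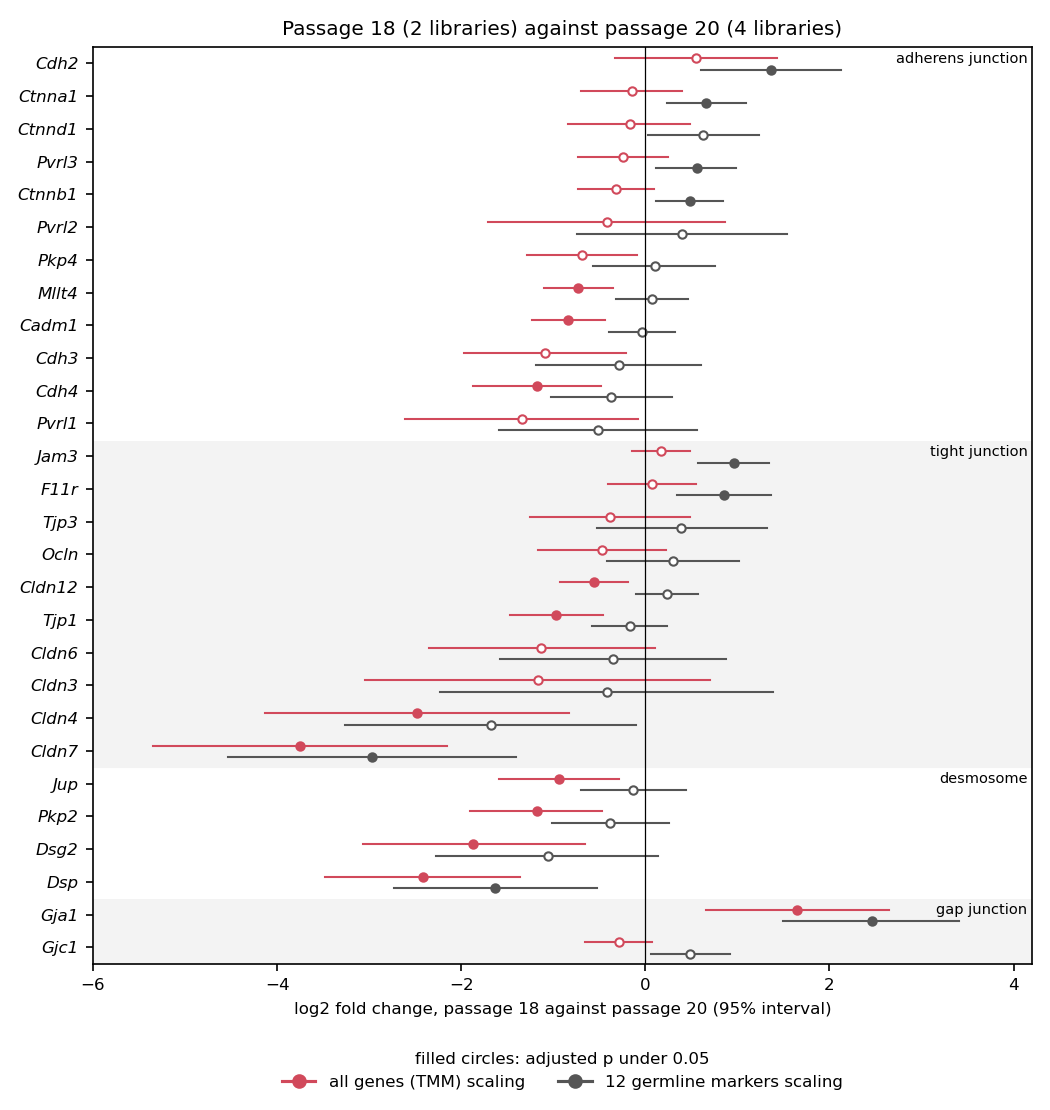
Log2 fold change of the 28 tested members, passage 18 (2 libraries) against passage 20 (4 libraries), with 95% intervals from edgeR and filled circles for adjusted p under 0.05. Red is scaled to all genes and grey to 12 germline markers. On the red scale 11 members were lower and Gja1 was higher, and on the grey scale Cldn7 and Dsp were lower and 7 members were higher, with 11 of the 28 values on opposite sides of 0 on the 2 scales.

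Tight junction scaffolds and the more abundant claudins and adhesion molecules came next. Tjp1, which encodes the scaffold ZO-1, was at 163, 252 and 99.6 CPM in WT and at 250, 200 and 122 CPM in the Ephb2-KO-labelled libraries, and was 1.96-fold lower at passage 18 (log2 -0.97, SE 0.22, adjusted p = 0.0173). Cldn12, a claudin at 83.9 to 150 CPM, was 1.47-fold lower (log2 -0.56, SE 0.16, adjusted p = 0.0372), a direction that turned on the germline scaling (0.23). Tjp1 stood at -0.17 on that scaling and did not pass. Ocln (occludin), Tjp3 (ZO-3), Cldn3, Cldn6, F11r and Jam3 did not pass, with values from -1.17 to 0.17. On the germline scaling F11r (0.85, adjusted p = 0.0131) and Jam3 (0.96, adjusted p = 0.00176) passed as higher, and Ocln and Tjp3 turned from -0.47 and -0.38 to 0.30 and 0.39 without passing. Of these, Ocln ran from 59.1 to 120 CPM, Tjp3 from 5.13 to 9.41 CPM, Cldn6 from 0.737 to 3.47 CPM and F11r from 150 to 227 CPM. Jam3, a junctional adhesion molecule that germ cells are known to carry, was the most even member, with 57.6 to 67.7 CPM over the 6 libraries.

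Of 12 adherens junction members, 3 were lower at passage 18 (25.0%, against 10.4% of all genes) and 0 higher (against 15.4%). On the germline scaling 0 were lower and 4 higher (33.3%, against 46.9% of all genes). The 3 lower members were Cdh4 (log2 -1.18, SE 0.30, adjusted p = 0.0269), Cadm1 and Mllt4. Cadm1 encodes an immunoglobulin-type adhesion molecule with a known part in holding spermatogenic cells to Sertoli cells. It was at 197, 246 and 109 CPM in WT and at 220, 231 and 142 CPM in the Ephb2-KO-labelled libraries, 1.79-fold lower at passage 18 (log2 -0.84, SE 0.17, adjusted p = 0.0123). Mllt4, or afadin, which binds nectins to actin, was at 139, 149 and 76.7 CPM and at 144, 122 and 90.7 CPM, 1.65-fold lower (log2 -0.73, SE 0.16, adjusted p = 0.0166), a direction that turned on the germline scaling (0.07). On that scaling Cdh4 stood at -0.37 and Cadm1 at -0.04, and none of the 3 passed. Cdh3 did not pass (log2 -1.09, SE 0.38, adjusted p = 0.0700), and neither did the catenins Ctnnb1, Ctnna1 and Ctnnd1 at -0.32, -0.15 and -0.17. On the germline scaling these 3 catenins turned to 0.48, 0.66 and 0.63, and the first and second passed as higher. Over the 6 libraries Ctnnb1 ran from 880 to 1314 CPM, Ctnna1 from 137 to 230 CPM and Ctnnd1, the p120 catenin that steadies cadherins at the membrane, from 15.2 to 31.7 CPM. Pkp4, a plakophilin relative found at adherens junctions, ran from 12.6 to 25.6 CPM and did not pass (log2 -0.69, SE 0.26, adjusted p = 0.0857, and 0.10 on the germline scaling).

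Connexin 43, the product of Gja1 and the best known gap junction protein of Sertoli cells and fibroblasts, went the other way. Gja1 (plus strand of chromosome 10, 56377300 to 56390419) was at 23.3, 30.3 and 72.1 CPM in WT and at 10.5, 36.6 and 85.5 CPM in the Ephb2-KO-labelled libraries. Both libraries of passage 18 were above all 4 of passage 20. It was 3.14-fold higher at passage 18 (log2 1.65, SE 0.42, adjusted p = 0.0291) and higher on the germline scaling too (2.46, SE 0.41, adjusted p = 0.00198). The other connexin of the list, Gjc1 (connexin 45), was at 86.5, 73.8 and 63.5 CPM and at 89.7, 76.2 and 70.0 CPM, and did not pass (log2 -0.29, SE 0.15, adjusted p = 0.201, and 0.49 on the germline scaling).

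**Figure D3:**
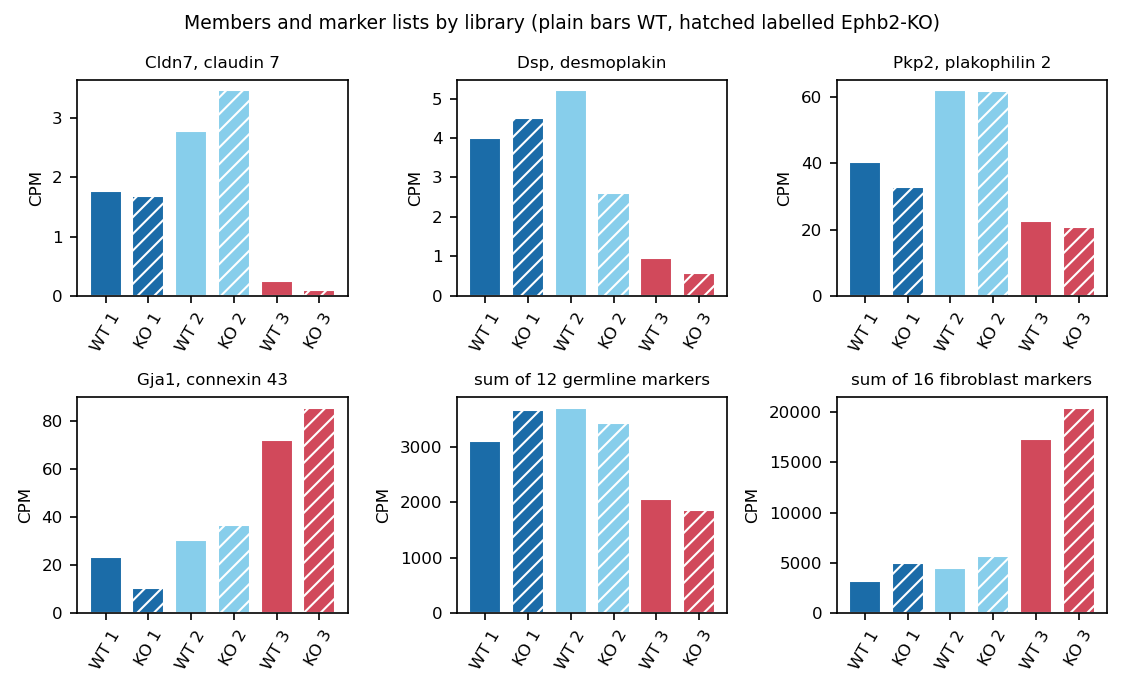
CPM of 4 members and summed CPM of the germline and fibroblast markers in each library, with axes from 0, plain bars for WT and hatched bars for the libraries labelled Ephb2-KO, and 1 colour per replicate number. Cldn7, Dsp, Pkp2 and the germline sum are lowest in both libraries numbered 3 (passage 18), where Gja1 and the fibroblast sum, at 17349 and 20440 CPM, are highest.

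Fitted with the replicate number as a block, which takes the spread from same-numbered libraries, 15 members were lower and 2 higher at passage 18 (53.6% and 7.14%), where 23.0% of all genes were lower and 25.0% higher. Calls were added for Cdh3 (log2 -1.09, SE 0.32, adjusted p = 0.0151), Pkp4 (-0.68, SE 0.20, adjusted p = 0.0137), Pvrl1 (-1.21, SE 0.28, adjusted p = 0.00587) and Ocln (-0.42, SE 0.14, adjusted p = 0.0257), all lower, and for Cdh2, which was higher (0.64, SE 0.16, adjusted p = 0.00673). Of these 5, only Cdh3 passed for number 3 against each of the other numbers (-1.12 against number 1 and -1.07 against number 2). Cdh2 was higher than at number 1 (1.17, SE 0.19), and its 0.11 against number 2 (SE 0.19) did not pass. Ocln was lower than at number 1 (-0.81, SE 0.15), and its -0.02 against number 2 did not pass. Pkp4 was likewise lower than at number 1 (-0.84), with -0.53 against number 2 (adjusted p = 0.0697). Pvrl1 was lower than at number 2 (-1.86, SE 0.32), with -0.57 against number 1 (adjusted p = 0.171).

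Among the 110 further junction genes, 67 were tested. At passage 18, 10 were higher (14.9%, against 15.4% of all genes) and 15 lower (22.4%, against 10.4%). E-cadherin was 4.69-fold lower (Cdh1, log2 -2.23, SE 0.46, adjusted p = 0.0135) and was lower on the germline scaling as well (-1.45, adjusted p = 0.0308). Cadherin 11, a cadherin of mesenchymal cells, was at 13.7, 12.9 and 125 CPM in WT and at 17.5, 16.8 and 139 CPM in the Ephb2-KO-labelled libraries. Cdh11 had a log2 fold change of 3.13 (SE 0.14, adjusted p = 0.000192), and 3.92 on the germline scaling. Jam2 (2.26) and Limd1 (1.27) were also higher, and the p120-related catenin Arvcf (-0.87) and the tricellular protein Marveld2 (-0.87) were lower. On the germline scaling Arvcf and Marveld2 both stood at -0.08 and did not pass.

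The sequence before the transcription start is shown for Cldn4, Cldn7, Dsp and Gja1. Of the members that RefSeq promoter windows covered, these 4 had the largest passage differences, in both directions. Each line gives the 250 bases before the start (RefSeq, GRCm38.p6), 5′ to 3′ on the gene's strand. Capitals mark the E-box CAGGTG, the letters that Snail and Zeb family repressors of epithelial genes are known to bind, the GC box GGGCGG and the AP-1 site TGACTCA, each on either strand. The windows are chr5:134946935-134947184 (minus strand) for Cldn4, chr11:69964529-69964778 (plus) for Cldn7, chr13:38151044-38151293 (plus) for Dsp and chr10:56377050-56377299 (plus) for Gja1.
Cldn4: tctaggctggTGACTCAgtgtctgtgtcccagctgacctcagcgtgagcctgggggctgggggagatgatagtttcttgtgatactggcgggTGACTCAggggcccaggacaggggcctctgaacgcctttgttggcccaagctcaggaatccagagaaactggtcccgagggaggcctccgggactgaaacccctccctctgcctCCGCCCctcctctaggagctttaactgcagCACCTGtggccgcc
Cldn7: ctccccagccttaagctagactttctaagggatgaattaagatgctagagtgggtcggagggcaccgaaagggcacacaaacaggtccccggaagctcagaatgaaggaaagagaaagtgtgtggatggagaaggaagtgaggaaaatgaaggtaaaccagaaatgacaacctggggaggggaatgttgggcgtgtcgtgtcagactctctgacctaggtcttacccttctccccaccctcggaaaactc
Dsp: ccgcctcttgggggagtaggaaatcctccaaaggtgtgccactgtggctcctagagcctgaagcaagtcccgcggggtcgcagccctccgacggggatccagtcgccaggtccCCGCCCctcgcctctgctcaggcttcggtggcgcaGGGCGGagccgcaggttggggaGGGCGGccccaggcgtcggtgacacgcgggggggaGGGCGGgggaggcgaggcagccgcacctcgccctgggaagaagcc
Gja1: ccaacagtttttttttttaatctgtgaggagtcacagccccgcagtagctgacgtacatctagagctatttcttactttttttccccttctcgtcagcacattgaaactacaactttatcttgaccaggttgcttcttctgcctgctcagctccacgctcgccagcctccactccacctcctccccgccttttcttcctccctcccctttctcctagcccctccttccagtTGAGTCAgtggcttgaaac

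The Cldn4 window held 1 E-box, 1 GC box and 2 AP-1 sites, the Dsp window 4 GC boxes, the Gja1 window 1 AP-1 site and the Cldn7 window none of these letters. RefSeq windows were found for 18 of the 29 members. For each, only the window nearest its annotated 5′ end was searched, with a start 4184 bases from that end for Ctnnb1 and 1558 for Pvrl3. The shares of all windows count every window, with several starts for some genes, so the shares compared below differ in unit. The E-box was present in 5 of the 18 (Cldn4, Cldn6, Tjp3, F11r and Pvrl2; 27.8%) and in 17.2% of all 32851 windows. The GC box was present in 13 of 18 (72.2%) and in 32.7% of all windows. The members' windows were also richer in G and C, with a median of 62% against 52.4% for all windows, and its part in these shares was not tested. The AP-1 letters were in 3 of 18 (Cldn4, F11r and Gja1; 16.7%) and in 4.46% of all windows, and TATAAA in 1 of 18 (Ctnnd1) and in 12.4%. Of the 3 motifs marked, none overlapped another in the 4 windows shown. These are matches of letters, and nothing in the data bears on binding.

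Most members differed between the replicate numbers. A difference between the 3 numbers was called for 23 of 28 members (82.1%, where 54.2% of all tested genes were called), by edgeR's quasi-likelihood test with the genotype as a covariate. Each number was carried by 1 WT and 1 Ephb2-KO-labelled line. The spread in this test is that between these same-numbered libraries, and not that between separate cultures. Ctnnb1, Ctnnd1, Cldn6, Jam3 and Gjc1 did not pass. The median absolute log2 difference between libraries of different numbers was 0.78 for members and 0.55 for all genes, and that between the libraries of 1 number was 0.28 and 0.25. For each of the 28 members the first exceeded the second, as it did for 86.3% of all genes. When single libraries were left out, the counts of members and of all genes called both moved, as listed in the closing section.

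Within passage 20, the libraries numbered 2 differed from those numbered 1 at 9 members, 6 higher and 3 lower, where 8.14% and 8.35% of all genes were called higher and lower. The spread in this test, too, was only that between same-numbered libraries. The 9 kept their directions under 3 other scalings, chosen after the data were seen, with Ctnna1 (0.43) and Pvrl3 (0.34) not passing on the germline scaling and Pvrl3 (0.41) not passing on the upper quartile. The nectins are immunoglobulin-type adhesion molecules that start adherens junctions. Pvrl2 (nectin 2) was at 14.3 and 17.4 CPM in the libraries numbered 1 and at 43.8 and 54.4 CPM in those numbered 2, which was 3.09-fold higher (log2 1.63, SE 0.17, adjusted p = 0.000234). Pvrl1 (nectin 1) was at 8.17 and 18.2 CPM against 33.5 and 27.0 CPM (log2 1.29, SE 0.31, adjusted p = 0.0214), and Pvrl3 (nectin 3) was at 60.5 and 57.3 CPM against 80.9 and 83.8 CPM (log2 0.48, SE 0.14, adjusted p = 0.0413). The other members that were higher were Cdh2 (log2 1.06, SE 0.19, adjusted p = 0.00499), Ctnna1 (0.57, SE 0.15, adjusted p = 0.0263) and Pkp2 (0.76, SE 0.16, adjusted p = 0.00980). Cldn3, a sealing claudin, had 70 and 209 counts at number 1 and 12 and 28 at number 2 (1.87 and 5.89 CPM against 0.470 and 1.26 CPM), 4.32-fold lower (log2 -2.11, SE 0.42, adjusted p = 0.00782). Ocln was at 102 and 120 CPM against 68.9 and 59.1 CPM (log2 -0.79, SE 0.15, adjusted p = 0.00738), and F11r at 204 and 227 CPM against 157 and 150 CPM (log2 -0.49, SE 0.14, adjusted p = 0.0358).

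Between these same numbers, 6 of 16 fibroblast genes were called higher and 3 lower at number 2, and 2 of 12 germline markers were called higher and 1 lower. Etv5, a GDNF-responsive factor of stem cell renewal, was at 252 and 218 CPM at number 2 against 24.7 and 23.3 CPM at number 1. The part of these markers in the differences of the junction genes was not tested. Of the further junction genes, Gja5 (connexin 40) had 264 and 187 counts at number 2, against 26 and 6 at number 1 and 33 and 26 at number 3. Amot, an angiomotin scaffold, was at 135 and 115 CPM at number 2 and at 51.5 to 77.1 CPM elsewhere. Inadl, a polarity scaffold of tight junctions, was at 43.8 and 42.3 CPM at number 2 and at 14.3 to 26.1 CPM elsewhere. These 3 passed the test over numbers with adjusted p of 3.06e-05, 0.000105 and 0.000106.

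The study's main question was how the lines labelled Ephb2-KO differ from WT, and among the junction genes no member was called. Of 28 tested members 0 passed (edgeR adjusted p = 1.0 for each), where 0.00% of all 15263 genes passed, and 0 members had an unadjusted p under 0.05. DESeq2 also called 0 members. The median log2 fold change was 0.09 for the members and 0.01 for all genes. In 0 members did the 3 libraries labelled Ephb2-KO lie wholly above WT (0.839% of all genes did) or wholly below (1.55%). With the replicate number as a block, 0 members passed again, where 0.0262% of all genes did, and the smallest adjusted p was 0.741. In that fit 4 members had an unadjusted p under 0.05, all higher in the Ephb2-KO-labelled libraries: Cldn3, Jup, Dsg2 and Pvrl2.

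Cldn3 (plus strand of chromosome 5, 134986214 to 134987472) had the smallest p among the members. Its 70, 12 and 15 counts in WT replicates 1, 2 and 3 stood against 209, 28 and 28 in the Ephb2-KO-labelled libraries, or 1.87, 0.470 and 0.619 CPM against 5.89, 1.26 and 1.38 CPM. The library labelled Ephb2-KO was the higher in each same-numbered pair, by 1.61, 1.30 and 1.07 on the log2 scale, while the groups as wholes overlapped. The blocked log2 fold change was 1.43 (SE 0.34, unadjusted p = 0.00157, adjusted p = 0.741), and 1.60 to 4.57 was the 95% interval of the fold. Without the block it was 1.51 (SE 0.83, adjusted p = 1.0). Jup and Dsg2, both of the desmosome, had blocked values of 0.51 (SE 0.18) and 0.90 (SE 0.38) with adjusted p = 0.741 each. Pvrl2 differed by 0.28, 0.31 and 0.30 in the 3 pairs.

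**Figure D4:**
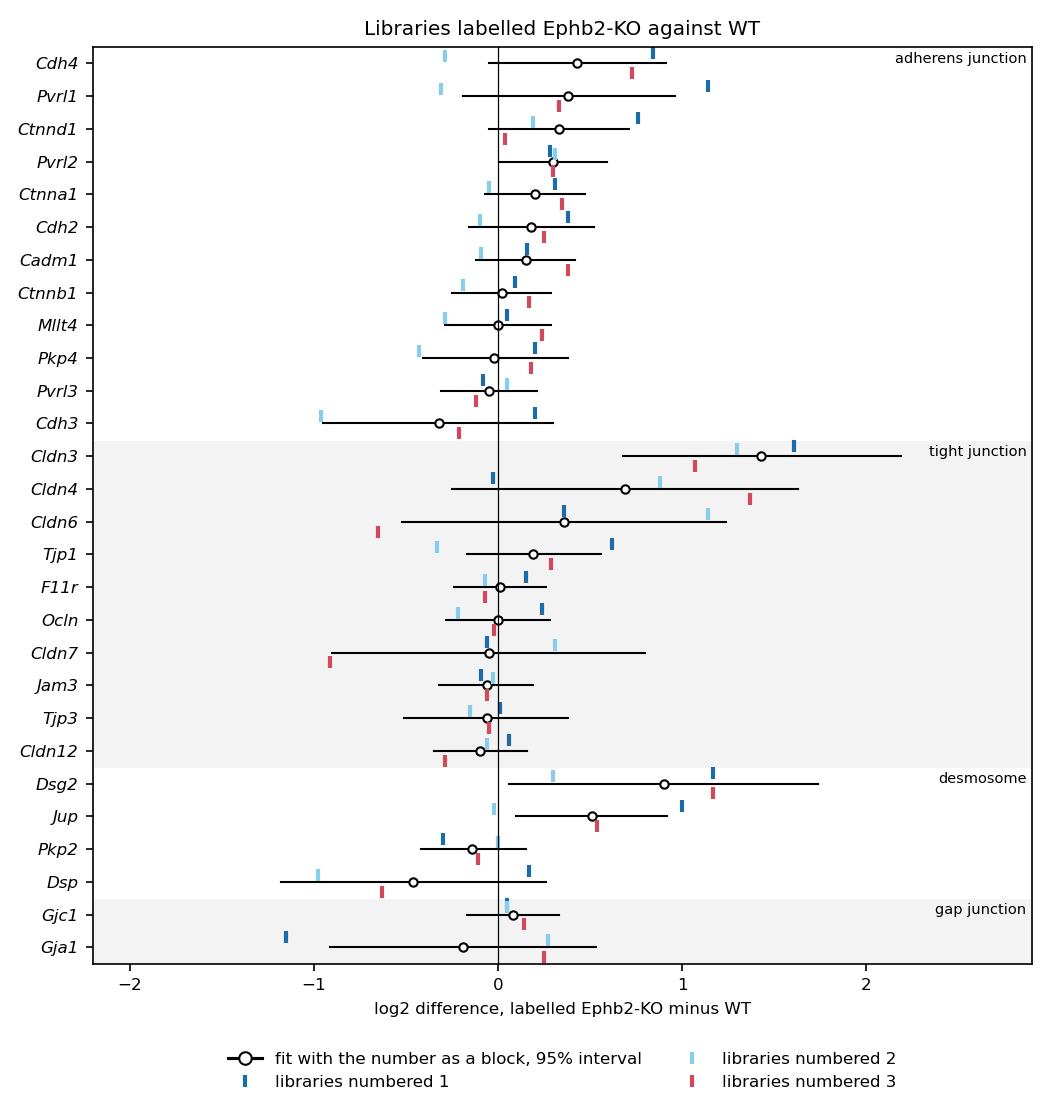
Log2 difference between the libraries labelled Ephb2-KO and WT for 28 members, with the blocked edgeR estimate and its 95% interval (open circles, since no adjusted p was under 0.05) and 1 coloured tick for each same-numbered pair. Cldn3 lies furthest right at 1.43 with its 3 ticks between 1.07 and 1.61, and for most other members the ticks fall on both sides of 0.

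Blocked values of the other members followed by the rule on named genes were 0.43 for Cdh4 (SE 0.22), 0.33 for Ctnnd1 (SE 0.17), 0.20 for Ctnna1 (SE 0.12), 0.69 for Cldn4 (SE 0.43), 0.38 for Pvrl1 (SE 0.26) and -0.46 for Dsp (SE 0.33). Their adjusted p ran from 0.741 to 0.783. Intervals were narrow for the abundant members: the blocked 95% interval of the fold was 0.842 to 1.23 for Ctnnb1, 0.845 to 1.20 for F11r and 0.802 to 1.14 for Jam3. They were wide for scarce ones, 0.536 to 1.74 for Cldn7 and 0.441 to 1.20 for Dsp. Changes within those bounds are not excluded. The intervals are not limits of detection, since a call also had to pass the adjustment over all tested genes.

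Counting pairs, 5 members were higher in the library labelled Ephb2-KO in 3 of 3 pairs (Ctnnd1, Pvrl2, Cldn3, Dsg2 and Gjc1; 17.9%, against 15.6% of all genes), and 2 were lower in 3 of 3 (Jam3 and Pkp2; 7.14%, against 12.3%). Both shares are near or below those of all genes. Beside this, 10 of 16 fibroblast genes were higher in 3 of 3 pairs, and their summed level was 3140, 4483 and 17349 CPM in WT and 4962, 5667 and 20440 CPM in the Ephb2-KO-labelled libraries. Their part in the values of the members was not tested. Of 67 further junction genes, 0 passed with or without the block. Cdh1 stood at -0.58 (SE 0.82, adjusted p = 1.0), and those with the smallest p without the block included Cldn5 (-0.66), Gjd3 (0.81), Perp (-0.47), Cldn10 (0.43) and Cdh10 (-0.65). A test of whether the passage difference itself depended on genotype called 0 of the 28 members and 0 of all genes (edgeR interaction term, adjusted p = 1.0 for each member).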

How the data were processed

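Polyadenylated RNA of 6 lines was sequenced with a directional kit, per the labels' protocols. What the authors deposited are unnormalized counts of reads for each gene name. Per the file headers they came from featureCounts 1.4.6-p4 with strand setting 2 and the GENCODE vM3 annotation, summed over the exons of a name, without options for pairs, multi-mapping or overlapping features. Reads shared by near-identical copies are therefore left out. STAR and the build GRCm38.p3 are named in the submitters' processing notes, with versions not given in the sources used here.

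The count model was edgeR 4.0.16 under R 4.3.3 (filterByExpr, TMM, robust quasi-likelihood test, Benjamini-Hochberg adjustment over all 15263 tested genes, threshold 0.05). SE is the log2 value over the root of its F statistic, and CPM uses TMM-scaled sizes. Pair differences in log2 CPM use a prior count of 2. DESeq2 1.42.0 was an alternative. Groups were compared without a covariate and passages and numbers with the genotype as covariate. The script was tested on simulated counts. Figures were drawn with matplotlib 3.10.9. In the files, 0 columns belonged to another series.

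Same-numbered libraries deviated together from their group means (correlations 0.596, 0.736 and 0.850 over genes, at most 0.0790 for other pairs; bound 0.1), so the numbers pair the libraries. The pairing comes from the numbers in the sample titles and this check. Biological coefficients of variation were 0.440 without and 0.166 with the block. No 2 libraries agreed within sampling noise (chi-square per degree of freedom 22.1 to 307).

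The members, gene lists and tests were chosen with earlier results of these data known. Every member is described by its CPM. Fold changes are given for those that passed between passages or between numbers 2 and 1, and for the 10 members with the smallest blocked p between groups. Up to 4 members per junction are also named between passages and numbers. Of the further junction genes, Cdh1 and up to 6 with the smallest p per comparison are named, apart from some that are not reported here. Pvrl1, Pvrl2, Pvrl3, Mllt4 and Inadl are named as in the files.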

Additional observations from a re-analysis of the deposited data

Results flagged for a closer look

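Among the 4 libraries of passage 20, Jup was at 23.4 CPM in WT replicate 1 and at 44.2, 44.8 and 47.1 CPM in the other 3. The gap to the nearest library, set against the whole range, was above Dixon's 95% critical value for 4 samples. About 5% of groups pass that value by chance, and 1 of the 29 members did.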

How the results depend on the processing

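Between groups, 0 genes passed in the edgeR fit, 4 with DESeq2, 4 with the replicate block, and 56, 3 and 4 with the block and both libraries of number 1, 2 or 3 left out. In each of these, and in each fit that left out 1 library, 0 members passed. Leaving out single libraries turned 5 log2 values that never passed: Pvrl1 ran from -0.25 to 1.21, Dsp from -1.08 to 0.08, Cdh4 from -0.02 to 0.85, Pvrl2 from -0.27 to 0.87 and Cldn4 from -0.32 to 1.34. Pvrl1 was also at -0.02 with the block and number 1 left out. Between passages, 3935 genes passed, and 284 to 4187 with single libraries left out, the low counts without WT replicate 3 or Ephb2-KO replicate 3. They numbered 7323 with the replicate block, 6498 for number 3 against 1, 6928 for number 3 against 2, and 7216 on the germline scaling. Members lower at passage 18 numbered 11, and 0 to 12 with single libraries left out, 7 with a filter of 5 CPM in 3 libraries, 17 for number 3 against 1 and 2 on the germline scaling. Members higher numbered 1, and 2 with the replicate block, 3 for number 3 against 1 and 7 on the germline scaling. On that scaling 11 members turned from below to above 0, among them Mllt4, Cldn12 and Gjc1 at 0.07, 0.23 and 0.49. Between numbers, 8276 genes and 23 members passed, and 4442 to 10084 and 11 to 27 with single libraries left out. The block changed no call of a member between groups. Fewer libraries were fitted in each leave-one-out and fewer genes under the 5 CPM filter, and for the other alternatives the cause was not tested. Depth limits the members with few counts, among them Dsc2, Cldn4, Cldn7 and Dsg2.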
